A study of Mus musculus with 6 samples.

Results

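Myeloid cells from a mouse ovarian tumor model were compared between a library from the combination of 2-deoxy-D-glucose (2DG) with an anti-PD-L1 antibody and a library from anti-PD-L1 alone. Cells were kept with at least 250 genes and at most 5% mitochondrial unique molecular identifiers (UMIs, 1 per captured RNA molecule). They had no UMI of Cd3d, Cd3e, Cd3g, Cd79a or Ncr1, genes of T, B and natural killer cells, and at least 3 UMIs of the myeloid genes Lyz2, Csf1r, Csf3r and Flt3. The rule found 7729 cells, of which marker gates placed 7526 in 4 classes, out of 17827 cells that passed the filters in these libraries and 51633 in all 6 libraries. The combination library gave 3835 gated cells and the anti-PD-L1 library 3691, and 87 and 116 myeloid cells met no single gate.

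The study injected KPCA cells, an HR-proficient mouse ovarian cancer line, into the ovarian bursa of female C57BL/6 mice aged 6 to 8 weeks. Mice of both groups received anti-PD-L1 at 5 mg/kg, 2 times a week for 3 weeks after day 9, and the combination group also received 2DG at 500 mg/kg every 2 days from day 9, with sacrifice on day 30. The 4 other libraries were control, 2DG, 2FF (2F-peracetyl-fucose) and 2FF with anti-PD-L1, and the anti-PD-L1 mice also served the 2FF comparison. Lymph node is the tissue in the labels, and the series text speaks of young and aged mice. The tumor experiment described by the study mentions neither for these libraries, so the tissue is treated here as uncertain.

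PD-L1 is a surface protein that tumor cells and myeloid cells use to restrain T cells through PD-1, and the antibody blocks that contact. 2DG is a glucose and mannose analog that slows glycolysis and disturbs the building of N-linked glycans on proteins such as PD-L1. Tumor myeloid cells include short-lived neutrophils, monocytes that enter from blood, macrophages that engulf debris and present antigen, and dendritic cells that prime T cells. They answer inflammatory cues with fast-acting immediate early genes, chemokines that recruit other leukocytes, and interferon-stimulated genes.

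Each condition was 1 library from 1 mouse, so no test between conditions was possible, and the treatment cannot be told apart from differences between mice or library preparations. UMIs were summed over a class and scaled to a total of 1000000 (CPM). A gene was called higher or lower when the ratio of CPM + 5 was at least 1.5-fold, a log2 ratio of 0.585, among genes with at least 50 UMIs. Log2 ratios are of the combination over anti-PD-L1 alone, folds are plain ratios of CPM, and values in parentheses after a level or share are exact 95% intervals that cover counting error only. The libraries held 65369018 and 62823127 UMIs in 9948 and 9764 barcodes, with medians of 7144.5 and 7031 UMIs per myeloid cell, and shared 28 barcodes, against 16 to 34 over all pairs of libraries.

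The gates were checked against markers they did not use. All 6 such neutrophil markers and all 6 dendritic cell markers were highest in their own class, as were 7 of 8 macrophage markers, the exception being Gpnmb. Of 4 monocyte markers outside the gate 1 was highest in monocytes, with Hp and Treml4 highest in neutrophils, so the monocyte class is the least sharply bounded. Of the 7 monocyte genes used in the gate 6 were highest there, and Chil3 was highest in neutrophils.

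Sequence before the starts of 5 genes that differed in every class is shown for the motif found in each. The sequences are RefSeq promoters on GRCm38.p6, 5′ to 3′ on the gene's strand, from 250 bases before to 20 after the start, with the motif match in capitals. Nr4a1 lies at chr15:101266596-101266865 on the plus strand, Zfp36 at chr7:28379209-28379478 on the minus strand, Tnip3 at chr6:65590148-65590417 on the plus strand, H2-T23 at chr17:36032682-36032951 on the minus strand, and Ell2 at chr13:75707234-75707503 on the plus strand.
Nr4a1, NF-kB match: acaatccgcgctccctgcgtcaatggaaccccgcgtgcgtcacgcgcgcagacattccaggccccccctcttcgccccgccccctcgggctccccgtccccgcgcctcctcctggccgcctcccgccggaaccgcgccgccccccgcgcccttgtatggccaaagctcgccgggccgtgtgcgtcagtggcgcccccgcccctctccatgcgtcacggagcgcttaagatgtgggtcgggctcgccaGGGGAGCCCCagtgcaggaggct
Zfp36, CArG match: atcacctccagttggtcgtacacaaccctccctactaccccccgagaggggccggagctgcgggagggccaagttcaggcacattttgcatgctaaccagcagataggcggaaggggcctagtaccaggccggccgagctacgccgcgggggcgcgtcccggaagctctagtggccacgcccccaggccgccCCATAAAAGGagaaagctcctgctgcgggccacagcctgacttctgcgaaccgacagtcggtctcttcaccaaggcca
Tnip3, NF-kB match: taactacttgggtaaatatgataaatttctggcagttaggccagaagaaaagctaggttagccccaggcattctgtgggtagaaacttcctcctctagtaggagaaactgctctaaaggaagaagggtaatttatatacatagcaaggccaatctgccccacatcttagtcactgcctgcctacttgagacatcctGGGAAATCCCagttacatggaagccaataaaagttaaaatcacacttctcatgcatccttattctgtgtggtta
H2-T23, ISRE match on the other strand: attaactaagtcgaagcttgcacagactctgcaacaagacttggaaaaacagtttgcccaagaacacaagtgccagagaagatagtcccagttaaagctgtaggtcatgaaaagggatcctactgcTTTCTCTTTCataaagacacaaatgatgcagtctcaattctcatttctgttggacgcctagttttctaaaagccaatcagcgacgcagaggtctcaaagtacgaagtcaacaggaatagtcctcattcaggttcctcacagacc
Ell2, CRE match: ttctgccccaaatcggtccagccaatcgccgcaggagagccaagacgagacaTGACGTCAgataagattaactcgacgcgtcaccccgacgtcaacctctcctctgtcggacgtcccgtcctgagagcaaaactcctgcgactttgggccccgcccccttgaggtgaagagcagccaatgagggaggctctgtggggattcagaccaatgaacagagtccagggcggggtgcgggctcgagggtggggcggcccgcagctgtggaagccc

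The 4 classes took different shares of the gated cells. Macrophages were 40.8% (39.3 to 42.4) of the combination library and 32.5% (30.9 to 33.99) of the anti-PD-L1 library, 1566 against 1198 cells. Monocytes were 48.4% (46.9 to 50.04), or 1858 cells, against 55.1% (53.5 to 56.7), or 2033 cells. The intervals of both classes did not overlap. Neutrophils were few, at 148 cells or 3.86% (3.27 to 4.52) against 173 cells or 4.69% (4.03 to 5.42). Dendritic cells were 263, or 6.86% (6.08 to 7.70), against 287, or 7.78% (6.93 to 8.69). The intervals of neutrophils and dendritic cells overlapped.

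The macrophage share of the combination library was inside the span of the other libraries. Across control, 2DG, 2FF and 2FF with anti-PD-L1 the macrophage share was 25.05%, 38.3%, 45.3% and 40.2%, and the monocyte share 34.4%, 45.1%, 41.6% and 48.6%. The anti-PD-L1 library thus had the highest monocyte share of the 6, while its macrophage share exceeded the control's alone. The control library stood apart, with neutrophils at 36.9% against 7.42%, 7.05% and 5.65% in the others outside this comparison, and dendritic cells ranged there from 3.58% to 9.15%.

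**Figure D1:**
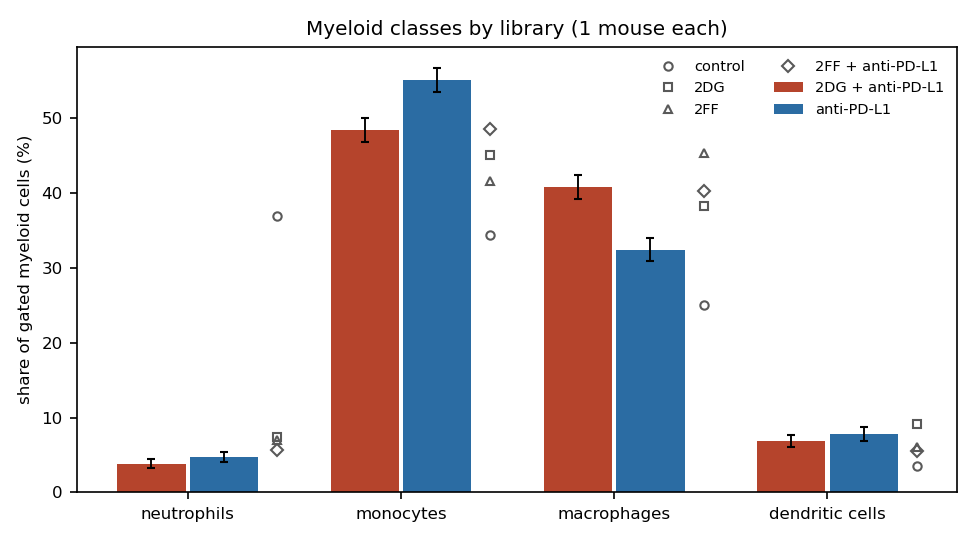
Share of gated myeloid cells in each class, in percent, for the 6 libraries, with exact 95% intervals of counting error as bars. Macrophages reach 40.8% with the combination and 32.5% with anti-PD-L1 alone, and monocytes 48.4% and 55.1%.

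Within classes, subsets were set by marker genes in a fixed order, and each cell was placed in the first subset whose rule it met. The subset markers other than Spp1, Gpnmb and Fscn1 are also gate genes, so class and subset shares are not independent. Among macrophages, cells with Mrc1, the mannose receptor CD206, and low Spp1 and Gpnmb were 56.4% (54.0 to 58.9) of the class with the combination and 44.6% (41.7 to 47.4) with anti-PD-L1 alone. Macrophages with at least 3 UMIs of Spp1, the matrix protein osteopontin, and Gpnmb together, both common in lipid-laden tumor macrophages, were 28.8% (26.6 to 31.1) against 34.5% (31.8 to 37.2). The rest were 14.8% against 21.0%. After every cell was thinned to 1000 UMIs, the Mrc1 cells were 44.8% and 35.7% and the Spp1 or Gpnmb cells 8.23% and 13.2%, the same order. Thinned cells kept the class given before thinning, so thinning does not check the effect of shared gate genes. Gpnmb was at 3.16 and 7.16 CPM in macrophages and highest in neutrophils, at 31.2 and 22.4 CPM, and had a UMI in 0.958% and 1.503% of macrophages against 44.6% and 50.8% for Spp1.

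Among monocytes, classical cells with Ly6c2 and no Ace were 45.6% (43.4 to 47.9) with the combination against 38.3% (36.1 to 40.4), and 28.9% against 23.4% after thinning. Ace-positive cells, where Ace is a marker of patrolling monocytes, were 31.6% (29.5 to 33.8) against 33.5% (31.4 to 35.6), with overlapping intervals. Cells with neither gene were 22.7% (20.8 to 24.7) against 28.2% (26.3 to 30.2).

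Among dendritic cells, the order was Ccr7 with Fscn1, then Xcr1 or Clec9a, then Siglech, then Cd209a. Xcr1 and Clec9a together needed more than 1 UMI, as did Siglech, and the other genes needed any UMI. Cd209a is a lectin of type 2 conventional and monocyte-derived cells. The Cd209a cells in no earlier subset were 51.0% (44.7 to 57.1) against 37.3% (31.7 to 43.2), and 31.9% against 19.2% after thinning. Cells with Xcr1 or Clec9a, receptors of the cross-presenting type 1 subset, were 28 cells or 10.6% (7.19 to 15.0) against 54 cells or 18.8% (14.5 to 23.8), and the thinned cells left 1 against 13. Mature cells with Ccr7 and Fscn1, which guide migration to lymph nodes, were 17.5% (13.1 to 22.6) against 24.0% (19.2 to 29.4). Cells with Siglech, a gene of plasmacytoid dendritic cells, numbered 14 and 6. The intervals of the last 3 subsets overlapped between libraries.

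Free RNA sets a floor for such shares, estimated here in B cells, taken as cells with a Cd79a UMI and no Cd3 UMI. That pool was not screened for myeloid genes. In the 463 B cells of the combination library and 246 of the anti-PD-L1 library, with medians of 5114 and 5131.5 UMIs, Mrc1 had a UMI in 10.4% and 8.54%, Ly6c2 in 9.72% and 14.6%, Ace in 2.81% and 2.03%, and Cd209a in 0.648% and 1.63%. The rule for the Spp1 or Gpnmb subset was met by 2.81% and 2.03% of these B cells. The share of cells with a UMI was 81.7% and 73.5% of macrophages for Mrc1, with medians of 9110.5 and 8814.5 UMIs. Ly6c2 was in 59.7% and 54.0% of monocytes, with medians of 6404.5 and 6535 UMIs. Cd209a was in 53.6% and 38.3% of dendritic cells, with medians of 8528 and 9508 UMIs. All were above the B cell level, but Mrc1, Ly6c2 and Cd209a are gate genes, so the classes were selected partly for carrying them. The comparison therefore cannot bound the free RNA in these shares.

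**Figure D2:**
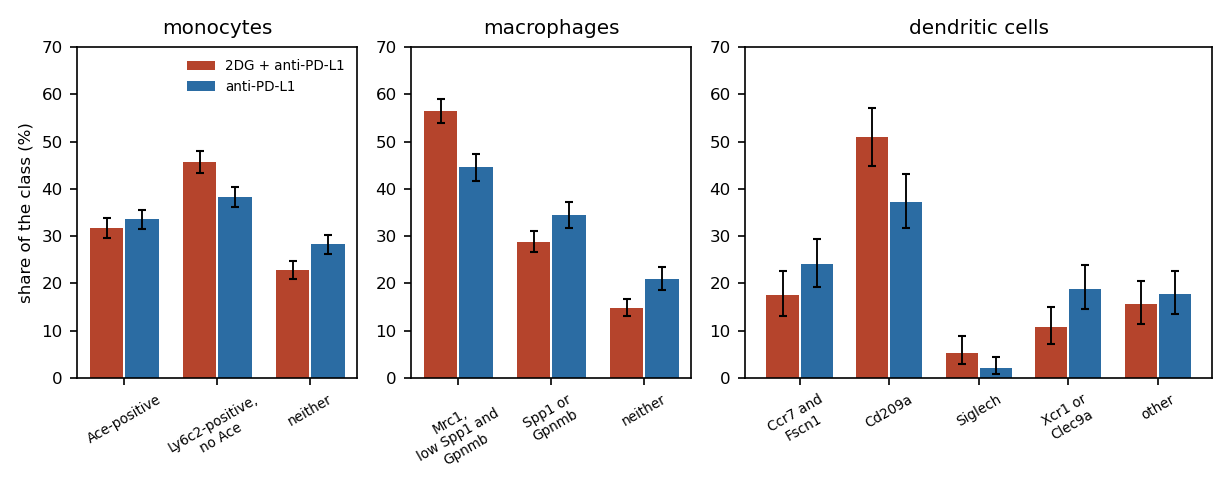
Share of each class taken by its subsets, in percent, in the combination and anti-PD-L1 libraries, with exact 95% intervals of counting error as bars. The Mrc1 macrophages (56.4% against 44.6%), the Ly6c2 monocytes (45.6% against 38.3%) and the Cd209a dendritic cells (51.0% against 37.3%) take larger shares with the combination. Mrc1, Ly6c2 and Cd209a are also genes of the class gates.

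Immediate early genes had the highest median in macrophages among lists with at least 5 measured genes. Of 11303 genes measured, 285 were higher with the combination, 2.52% of those tested, and 337 were lower, 2.98%; with ratios centred on their median these became 395 and 218. Of the 22 measured immediate early genes, transcription factors and feedback regulators switched on within minutes of a signal, 13 were higher and none lower, with a median log2 ratio of 0.76 against −0.076 over all genes. Zfp36, which encodes tristetraprolin, a protein that destabilises cytokine mRNA, was at 1097 CPM (1081 to 1114) against 306 CPM (296 to 316), a 3.59-fold ratio. The nuclear receptor Nr4a1 was at 132 CPM (126 to 138) against 39.4 CPM (35.8 to 43.2). Fos was at 2705 against 1259 CPM, Junb at 1797 against 936 CPM, Klf2 at 450 against 226 CPM, and the phosphatase gene Dusp1 at 1693 against 992 CPM. Jun, in contrast, was at 1316 against 1387 CPM.

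The immediate early difference in macrophages was present in all 3 subsets. The list's median log2 ratio was 0.73 in the Mrc1 cells, 0.79 in the Spp1 or Gpnmb cells and 0.84 in the rest. Nr4a1 gave log2 ratios of 1.63, 1.46 and 2.02 in the same order. In the anti-PD-L1 library the level of Zfp36 in macrophages was the lowest of the 6, below 882 CPM in control, 466 in 2DG, 871 in 2FF and 1195 in 2FF with anti-PD-L1. Nr4a1 was also lowest there, below 88.9, 52.8, 69.6 and 127 CPM. The combination's levels were near those of 2FF with anti-PD-L1. In cells outside the 4 classes 9 of 22 measured members were higher too, with a median of 0.46. Myeloid transcripts moved in that pool as well, with log2 ratios of 1.03 for Ccl2, 0.89 for Cd14 and 0.75 for Il1b, and its share of free myeloid RNA was not measured.

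Among chemokines and their receptors, 9 of 23 were higher in macrophages and 2 lower, with a median of 0.42. Ccl8, a monocyte attractant, was at 687 CPM (674 to 700) against 253 CPM (244 to 262). Ccl5, a T cell attractant, was at 995 CPM (979 to 1011) against 418 CPM (406 to 430). Ccl4 was at 1097 against 441 CPM and Cxcl2, which attracts neutrophils, at 3251 against 1709 CPM. Ccl17 and Ccl22, ligands of CCR4 known from dendritic cells, were lower: Ccl17 was at 1.84 CPM (1.23 to 2.67) against 101 CPM (95.5 to 107), from 28 and 1159 UMIs in 10 and 58 cells, and Ccl22 at 1.25 CPM (0.754 to 1.95) against 10.4 CPM (8.61 to 12.4). Dendritic cell markers in the macrophage class were lower as well, 9 of 12 with 2 higher and Klk1 at 0 in both, and summed to 127 against 191 CPM. Ccr7 was at 2.44 against 10.8 CPM, Fscn1 at 1.98 against 5.68 CPM and Zbtb46 at 2.24 against 5.76 CPM, and their part in the result was not tested. Without cells of high doublet score Ccl17 was at 1.72 against 111 CPM. Cxcl9, an interferon-gamma target that recruits CXCR3+ T cells, was at 1333 against 1320 CPM.

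Of 16 cytokine genes 5 were higher in macrophages. Il1b was at 1449 CPM (1430 to 1469) against 605 CPM (591 to 620), Il10, an anti-inflammatory cytokine, at 20.1 CPM (17.9 to 22.5) against 7.86 CPM (6.32 to 9.66), and Il1rn, which encodes the natural blocker of interleukin-1, at 322 against 191 CPM. Both inflammatory and inhibitory members were thus among the higher genes. Of 16 suppressor enzymes and factors, 6 were higher and none lower, led by Retnla. The prostaglandin synthase gene Ptgs2 was at 195 CPM (188 to 202) against 97.5 CPM (91.8 to 103). Arg1, the arginase of suppressive macrophages, did not pass the size rule here, at 2672 CPM (2646 to 2698) against 3361 CPM (3328 to 3395).

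Retnla, Marco and Timd4, genes of resident macrophages of the peritoneal cavity and other tissues, had log2 ratios of 2.57, 1.66 and 1.26 but rested on few cells. They had a UMI in 26, 35 and 22 of 1566 macrophages with the combination and in 15, 11 and 5 of 1198 with anti-PD-L1 alone. A single cell carried 246 of the 952 Retnla UMIs of the combination library. Cells with at least 2 of the 3 genes numbered 22 and 3.

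Genes of antigen presentation and uptake moved unevenly in macrophages. Of 20 MHC class I presentation genes 5 were higher, among them H2-T23, which encodes the nonclassical molecule Qa-1, at 206 CPM (198 to 213) against 65.3 CPM (60.7 to 70.2). B2m, the shared light chain, was at 2425 CPM (2400 to 2449) against 1596 CPM (1573 to 1619), and the peptide transporter gene Tap2 at 67.1 against 37.3 CPM. Of 10 MHC class II genes none was higher and 2 were lower, and Ciita, the class II transactivator, was at 174 CPM (168 to 181) against 272 CPM (262 to 281). H2-Aa, a class II chain, was at 3737 against 3640 CPM. Cd86, a costimulatory ligand for T cells, was at 1265 CPM (1247 to 1283) against 688 CPM (673 to 704), and Cd274, which encodes PD-L1 itself, at 550 CPM (538 to 562) against 437 CPM (425 to 449), short of the size rule. H2-T23 belongs to a family of near-identical genes, so its counts may be shared with relatives.

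Of 20 lipid and tumor macrophage genes, 3 were higher and 4 lower. Fabp5, a fatty acid carrier, was at 1678 CPM (1658 to 1699) against 716 CPM (701 to 732), with log2 ratios of 1.43 in the Mrc1 cells, 1.13 in the Spp1 or Gpnmb cells and 0.43 in the rest. Spp1 was at 621 CPM (609 to 634) against 1058 CPM (1039 to 1077), and the elastase gene Mmp12 at 93.5 CPM (88.7 to 98.5) against 240 CPM (231 to 249). Of 18 phagocytic and Fc receptor genes 5 were higher, Fcgr4 among them at 694 against 419 CPM. Axl, a receptor for dying cells, was at 55.1 CPM (51.4 to 58.9) against 134 CPM (128 to 141).

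The largest macrophage ratios outside these lists were of Gm15056, a gene near the defensin cluster on chromosome 8, at 65.8 CPM (61.7 to 69.96) against 11.2 CPM (9.33 to 13.3), and of the endothelin receptor gene Ednrb, at 77.2 CPM (72.9 to 81.8) against 20.7 CPM (18.1 to 23.5). Ell2, a factor of transcription elongation, was at 929 CPM (914 to 945) against 300 CPM (290 to 311). The lowest was Mgl2, the galactose-type lectin CD301b of alternatively activated macrophages and type 2 dendritic cells, at 49.4 CPM (45.9 to 53.1) against 231 CPM (222 to 240), with log2 ratios of −2.00, −3.08 and −2.38 in the 3 subsets. Fgf13 was at 22 against 105 CPM, the peptide transporter gene Slc15a2 at 11.0 against 47.6 CPM, and Taco1, a mitochondrial translation factor, at 13.8 against 52.6 CPM. Nt5e, which encodes the adenosine-forming enzyme CD73, was at 28.9 CPM (26.3 to 31.8) against 102 CPM (95.9 to 108). Gm17268, at 39.1 against 141 CPM, lies across Ccl2 on the opposite strand (chr11:82028224-82038562), so its counts are uncertain.

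Many macrophage genes were at an extreme of the series. Of the 285 higher genes, 197 or 69.1% had the combination library above the other 5 libraries, and of the 337 lower genes, 248 or 73.6% had it below the other 5. The anti-PD-L1 library was the lowest of 6 for 114 of the higher genes and the highest for 177 of the lower. In monocytes the combination was above the other 5 for 110 of 202 higher genes and below them for 156 of 253 lower genes, in dendritic cells for 348 of 473 and 453 of 584, and in neutrophils for 283 of 493 and 133 of 300. These genes were chosen for a difference between the same libraries, which favors such extremes, so nothing is read from the counts. Over all genes measured the combination was at either extreme for 36.6% in macrophages, 28.3% in monocytes, 42.1% in dendritic cells and 32.4% in neutrophils. Counted against cells outside the 4 classes, where 1.66% of 14138 genes were higher and 1.17% lower, 82 of 276 higher macrophage genes measured there, 29.7%, were higher too, and 75 of 337 lower genes, 22.3%, were lower too. The same shares were 39.5% and 23.4% of monocyte genes, 18.0% and 14.6% of dendritic cell genes, and 9.35% and 11.5% of neutrophil genes.

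Chemokines and type I interferon response genes had the highest medians in monocytes among lists with at least 5 measured genes. Of 10837 genes, 202 were higher, 1.86%, and 253 lower, 2.33%, or 290 and 168 with centred ratios. Of 22 chemokines and receptors, 11 were higher and 1 lower, with a median log2 ratio of 0.57 against −0.068 over all genes. Ccl4 was at 1020 CPM (1002 to 1038) against 334 CPM (324 to 344), Ccl2, which draws monocytes from bone marrow and blood, at 456 CPM (444 to 468) against 182 CPM (175 to 190), and Cxcl10, an interferon-induced ligand of CXCR3, at 809 CPM (793 to 825) against 395 CPM (385 to 406). Ccl2 in the control library was far above both, at 1161 CPM. The combination library held the highest monocyte Ccl4 of the 6, the others lying between 303 and 912 CPM.

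All 33 measured type I interferon response genes had monocyte ratios above 0, and 7 passed the size rule, with a median of 0.42. Isg15, an ubiquitin-like modifier, was at 397 CPM (386 to 409) against 214 CPM (206 to 222), and Ifit1, which binds foreign RNA, at 73.8 CPM (69.1 to 78.7) against 40.3 CPM (37.0 to 43.9). The 2FF with anti-PD-L1 library was higher still, at 484 CPM of Isg15 and 124 CPM of Ifit1. The list's median was 0.20 in Ace-positive monocytes, 0.50 in Ly6c2 cells and 0.38 in cells with neither gene. In macrophages 8 of 33 members were higher, with a median of 0.38, and in cells outside the 4 classes 2 of 33, with a median of 0.20.

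The interferon-gamma response list gave 4 of 25 higher genes in monocytes, with a median of 0.40, and 1 of 25 in macrophages, with 0.25. The MHC class I list gave 4 of 20 in monocytes, with H2-T23 at 172 CPM (165 to 180) against 59.2 CPM (55.2 to 63.4) and B2m, short of the size rule, at 2221 CPM (2195 to 2247) against 1579 CPM (1558 to 1601). None of 10 MHC class II genes passed in either direction in monocytes, with a median of −0.17. Immediate early genes gave 5 of 22 higher, with a median of 0.34, less than the 0.76 of macrophages, a difference that was not tested. Dendritic cells had 10 of 22 of these genes higher and none lower, with a median of 0.50, against 5.61% of all genes higher. Neutrophils had 3 higher and 3 lower of 20, with a median of 0.22, against 13.8% and 8.39% of all genes.

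The monocyte gene with the largest ratio was Tnip3, an inhibitor of NF-kB signaling, at 445 CPM (433 to 457) against 136 CPM (130 to 142), a 3.27-fold ratio and the highest of the 6 libraries. Cd38, an ectoenzyme that consumes NAD, was at 144 CPM (138 to 151) against 53.7 CPM (49.9 to 57.7), but the control library had 219 CPM. Zfp36 was at 1194 CPM (1175 to 1213) against 468 CPM (457 to 480). At the other end, the heat shock genes Hspa1b and Hspa1a were at 56.8 CPM (52.7 to 61.2) against 315 CPM (306 to 325) and at 103 CPM (97.0 to 108) against 347 CPM (337 to 357). Slc15a2 was at 11.4 against 71.6 CPM, Taco1 at 14.9 against 48.2 CPM, and Cdh1, which encodes E-cadherin, at 19.8 against 57.3 CPM. Arg1 was at 685 CPM (670 to 700) against 1293 CPM (1274 to 1312), and 5057 CPM in the control.

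Dendritic cells gave 473 higher genes of 8437, 5.61%, and 584 lower, 6.92%, with fewer UMIs behind them (2516241 and 3208268) than macrophages (15177500 and 11449375). Of 31 type I interferon response genes 16 were higher and 1 lower, with a median log2 ratio of 0.59 against −0.035 over all genes. The list's median was 0.47 in the Cd209a cells, 0.35 in the Ccr7 and Fscn1 cells and 0.80 in the unassigned rest. It was 0.29 in the Xcr1 or Clec9a cells, with 2 higher and 2 lower of 13. The Siglech cells had 4 measured members, with a median of 0.89. Isg15 was at 186 CPM (170 to 204) against 86.7 CPM (76.8 to 97.5), and Irf7, the factor that amplifies interferon production, at 85.4 CPM (74.4 to 97.7) against 48.6 CPM (41.3 to 56.9). Ifit1, however, was at 12.7 CPM (8.70 to 18.0) against 16.5 CPM (12.4 to 21.6), with overlapping intervals. Of 25 interferon-gamma response genes 1 was higher and 2 lower, and in the Xcr1 or Clec9a cells 9 of 15 measured members were lower, with a median of −0.63 from 28 and 54 cells. Of all 4350 genes measured in those cells 9.59% were higher and 11.9% lower.

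Of 20 chemokines and receptors in dendritic cells 11 were higher and 2 lower, with a median of 0.63. Ccl4 was at 754 CPM (721 to 789) against 165 CPM (151 to 180), the highest of the 6 libraries, Ccl3 at 99.8 CPM (87.8 to 113) against 34.3 CPM (28.2 to 41.3), and Cxcl2 at 479 CPM (453 to 507) against 202 CPM (187 to 218). The 2 lower genes were Ccl17 and Ccl22. Ccl17 was at 129 CPM (115 to 144) against 546 CPM (521 to 573), and Ccl22 at 174 CPM (159 to 192) against 396 CPM (375 to 419). The combination had the lowest Ccl17 of the 6, the others lying between 170 and 668 CPM. The log2 ratio of Ccl17 was −1.08 in the Ccr7 and Fscn1 cells, −2.26 in the Cd209a cells and −5.14 in the Xcr1 or Clec9a cells, where it had 5 against 553 UMIs from 28 and 54 cells.

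Cadm1 and Dnase1l3 were among the lowest dendritic cell genes. The type 1 subset, set by Xcr1 or Clec9a, had 28 against 54 cells, and the intervals of its share overlapped. Its part in these values was not tested. Cadm1, an adhesion molecule of that subset, was at 86.6 CPM (75.5 to 98.9) against 364 CPM (343 to 386), and the nuclease gene Dnase1l3 at 22.3 CPM (16.8 to 28.9) against 107 CPM (95.9 to 119). Within the Xcr1 or Clec9a cells Cadm1 had a log2 ratio of −1.32 and Dnase1l3 of −2.23. Myo6, a motor protein gene, had 3 UMIs against 65, a log2 ratio of CPM without the added value of −4.09 (−6.40 to −2.48). With both libraries set to the same subset makeup, an alternative added after the data were seen, 357 genes were higher and 436 lower, of which 315 and 390 were among those called before. Slc15a2 was at 6.36 against 49.6 CPM, and Hspa1b at 50.5 CPM (42.1 to 60.1) against 218 CPM (202 to 234).

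Of 13 phagocytic and Fc receptor genes in dendritic cells 8 were higher and 1 lower, against 5.61% and 6.92% of all genes. Their median was 0.62, which fell to 0.35 with equal subset makeup. In the Cd209a cells 6 of 13 were higher and 1 lower, and in the unassigned rest 3 of 7 were higher. None of 7 was higher and 2 were lower in the Xcr1 or Clec9a cells. Of all genes 6.53% were higher and 9.51% lower in the Cd209a cells, and 10.9% were higher in the rest. In the Xcr1 or Clec9a cells, from 28 and 54 cells, 9.59% of all genes were higher and 11.9% lower. Fcgr4 was at 62.8 CPM in dendritic cells of the combination and 694 CPM in macrophages, and the part of free RNA was not tested. Fcgr3 was at 141 CPM (126 to 156) against 72.3 CPM (63.3 to 82.2), with a log2 ratio of 0.80 within the Cd209a cells. The phosphatase gene Dusp2 was at 162 CPM (146 to 178) against 43.6 CPM (36.7 to 51.5), Lpar1, a receptor for lysophosphatidic acid, at 29.8 against 5.61 CPM, Selp, which encodes P-selectin, at 23.4 against 4.05 CPM, and Tldc2 at 68.0 against 15.6 CPM. Cd274 was at 622 CPM (592 to 654) against 650 CPM (622 to 678), with overlapping intervals.

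Neutrophils carried the least data, with 608490 and 712950 UMIs, and the highest background, 13.8% of 3576 genes higher (493) and 8.39% lower (300), or 373 and 406 with centred ratios. Granule genes, which encode the proteases and antimicrobial proteins packed during maturation, were lower in 6 of 10 cases and higher in none, with a median log2 ratio of −0.69 against 0.096 over all genes. The collagenase gene Mmp8 was at 237 CPM (200 to 279) against 814 CPM (749 to 883), and Padi4, which citrullinates histones during release of extracellular traps, at 26.3 CPM (15.0 to 42.7) against 92.6 CPM (71.6 to 118). Retnlg, a resistin-like gene of mature blood neutrophils, was at 1453 CPM (1359 to 1552) against 7298 CPM (7101 to 7499), the extremes of the 6 libraries, the others lying between 2637 and 6244 CPM. Retnlg was also lower in the cells outside the classes, with a log2 ratio of −2.47.

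Of 19 glycolysis genes in neutrophils 6 were lower and none higher, with a median of −0.44 and 1 member above 0. The glucose transporter gene Slc2a1 was at 205 CPM (171 to 245) against 355 CPM (312 to 401) and hexokinase 2, Hk2, at 150 CPM (120 to 184) against 283 CPM (246 to 325). In monocytes and macrophages no glycolysis gene passed the size rule, but 2 of 20 and 1 of 21 had a ratio above 0, with medians of −0.28 and −0.26, and the cells outside the classes had −0.25. The dendritic cell median was −0.13, with Pgk1 and Gpi1 called lower. Ribosomal protein genes were higher in neutrophils, 30 of 79 with a median of 0.52, and took 4.13% against 3.003% of neutrophil UMIs. The anti-PD-L1 share was the lowest of the 6 libraries. The share was 3.296% in control, 4.146% in 2DG, 4.169% in 2FF and 4.167% in 2FF with anti-PD-L1. The combination was thus above control and anti-PD-L1 alone but not above the other libraries.

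Inflammatory genes of neutrophils moved in both directions. Il1b was at 6965 CPM (6757 to 7178) against 4114 CPM (3966 to 4266), Cxcl10 at 370 CPM (323 to 421) against 104 CPM (81.5 to 130), and Ptgs2 at 919 CPM (844 to 998) against 386 CPM (341 to 434). Ccl4 was at 1372 CPM (1281 to 1469) against 2460 CPM (2346 to 2578), opposite to the other 3 classes. Arg1 was at 42.7 CPM (27.9 to 62.6) against 188 CPM (157 to 223). All 5 measured MHC class II genes were higher, H2-Aa at 353 against 153 CPM, but the list's median turned from 1.08 to −0.11 once cells with high doublet scores were removed. Nup107, the gene with the largest ratio at 87.1 against 12.6 CPM, had UMIs in 10 and 6 cells, and its log2 ratio turned from 2.39 to −0.61 in thinned cells. Atp2a2, Hnrnpab, Airn, which is antisense to a coding gene, and Rer1 followed, with 71, 56, 61 and 49 UMIs against 17, 15, 18 and 14. Ccl2 was at 143 CPM (115 to 176) against 32.3 CPM (20.5 to 48.4). Hspa1a was at 23 against 205 CPM, and Scrg1 and Sfmbt2 had 9 and 12 UMIs against 72 and 59.

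**Figure D3:**
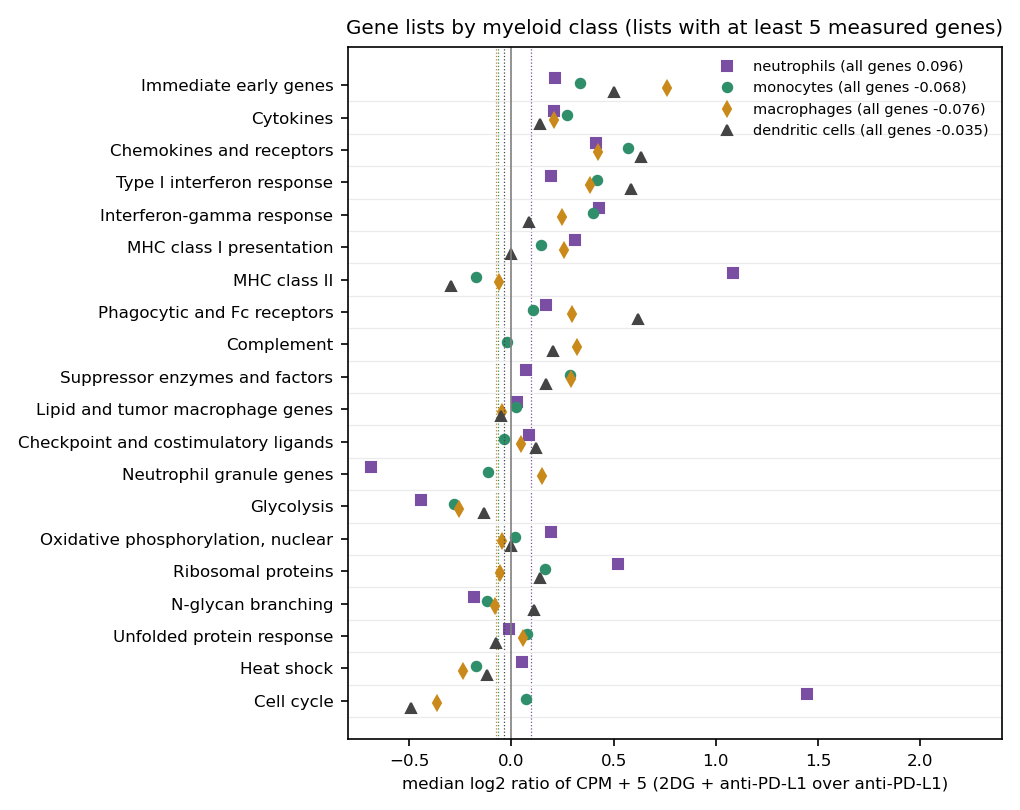
Median log2 ratio of CPM + 5 (combination over anti-PD-L1 alone, horizontal axis) of each gene list in each class, for lists with at least 5 measured genes, with dotted lines at the medians over all genes. Immediate early genes reach 0.76 in macrophages and type I interferon genes 0.59 in dendritic cells, and glycolysis lies below 0 in all 4 classes.

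A set of 25 genes was higher and 13 were lower in all 4 classes, out of 3419 genes measured in each, and 22 and 9 of them were called in the same direction in the cells outside the classes. The higher set held Zfp36, Nr4a1, Il1b, Ccl2, Ell2, Tnip3, H2-T23 and the lipopolysaccharide co-receptor gene Cd14. It also held the receptor-like gene Ccrl2, the lectin gene Clec4e and the inflammatory caspase gene Casp4. Zfp36 had log2 ratios of 0.96, 1.34, 1.83 and 1.65 in neutrophils, monocytes, macrophages and dendritic cells, and 1.39 outside them. H2-T23 gave 1.51, 1.47, 1.58 and 1.63, and 1.31 outside. Cebpb, a transcription factor of myeloid inflammatory responses, gave 1.01, 0.96, 1.12 and 1.63, and 0.83 outside. Slc7a11, the cystine importer that feeds glutathione synthesis, gave 1.18, 1.38, 1.51 and 1.13, and 1.23 outside. In dendritic cells of the combination Il1b, Cd14, Cebpb, Ccrl2 and Clec4e were under 20% of their level in neutrophils. So were Clec4e in macrophages and Antxr2 in monocytes, the latter at 263 against 1883 CPM. The part of free RNA in those ratios was not tested.

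Other genes higher in all classes included Ost4, Pfn1, Antxr2, Dennd4a, Homer1, Mpp7, Nup107, Tldc2, Gm17749, Gm21188 and Gm26532. Of the 25 genes, 8 had the combination as the highest of the 6 libraries in every class and 6 had anti-PD-L1 as the lowest in every class. Of the 13 genes lower in all classes, 5 had the combination as the lowest and 3 had anti-PD-L1 as the highest in every class. All were chosen for a difference between the same libraries, which favors such extremes, so nothing is read from these counts.

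The 13 genes lower in all classes were Hspa1b, Cish, Il31ra, Lars2, Camk1d, Cdk8, Bicra, Fam222b, Tex14, Gm26917, Gm42418, Gm15564 and Gm36723. Hspa1b, an inducible chaperone, had log2 ratios of −2.79, −2.37, −1.09 and −2.00, and −1.78 outside the classes. In neutrophils it was at 14.8 CPM (6.76 to 28.1) against 132 CPM (107 to 161). Hspa1a and Hspa1b are near-identical copies, so reads may be split between them. Counting these genes, 2 of 7, 3 of 13, 3 of 14 and 5 of 13 heat shock members were lower in neutrophils, monocytes, macrophages and dendritic cells. Of all genes 8.39%, 2.33%, 2.98% and 6.92% were lower in the same order. The 2 lower members in neutrophils were Hspa1a and Hspa1b. The list's medians were 0.05, −0.18, −0.24 and −0.12, the neutrophil median reaching −0.60 in thinned cells. Cish, a feedback inhibitor of cytokine signaling, was in monocytes at 34.1 CPM (30.9 to 37.5) against 56.5 CPM (52.6 to 60.7), and Il31ra, a cytokine receptor, at 114 CPM (109 to 121) against 232 CPM (224 to 240). Lars2, Gm42418 and Gm26917 are known to collect ribosomal RNA reads and vary with library quality. Lars2 was in monocytes at 476 against 958 CPM and Gm26917 in macrophages at 110 against 231 CPM, both lower outside the classes too, and the part of RNA quality in the other results was not tested.

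**Figure D4:**
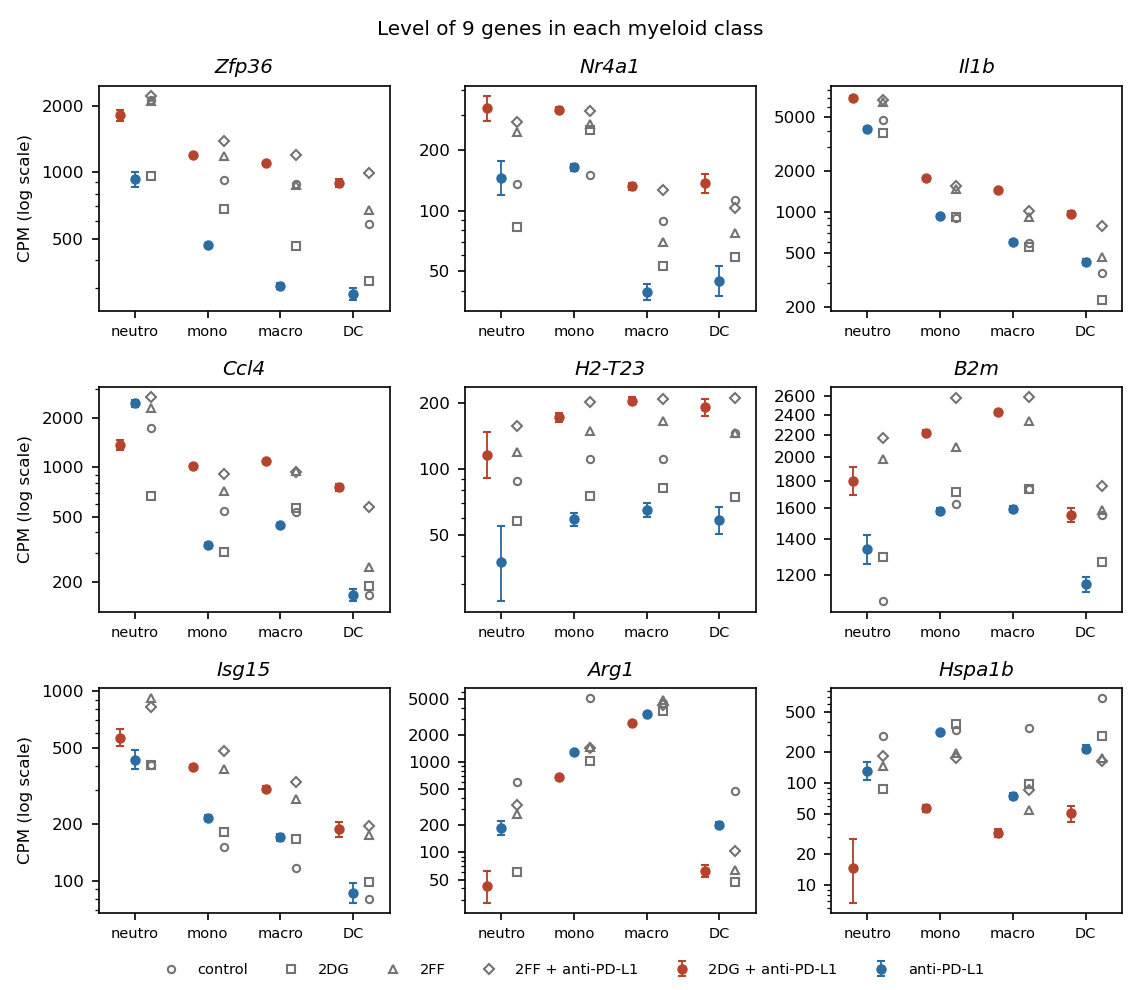
Level of 9 genes in each class in CPM (log scale), with exact 95% intervals of counting error for the combination and anti-PD-L1 libraries and open symbols for the 4 other libraries. Zfp36, Nr4a1, Il1b and H2-T23 are higher with the combination in every class, Ccl4 is lower in neutrophils alone, and Hspa1b is lower in every class.

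The promoters of these shared genes were searched on both strands from 250 bases before to 50 after the start. A RefSeq promoter was matched for 19 of the 25 higher and 10 of the 13 lower genes. An NF-kB site, the motif of the factor that drives many inflammatory genes, was in 4 of the 19 (Casp4, Ccrl2, Nr4a1 and Tnip3), 21.1%, against 8.18% of 27025 promoters, and in 1 of the 10 lower genes, Hspa1b. A CRE (TGACGTCA) was in Ell2 and in 1.88% of all promoters, an ISRE (GAAA, any 2 bases, then GAAA again) in H2-T23 and in 3.49%, and a CArG box in Zfp36 and in 1.57%. None of the 19 had an AP-1 site (TGANTCA), against 7.93% of all promoters. A match is the presence of these letters and does not show binding.

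Genes of N-glycan branching and the unfolded protein response were counted beside all genes. Of 11 N-glycan branching genes none was higher in monocytes, macrophages or dendritic cells and 1, 2 and 1 were lower. Of all genes 2.33%, 2.98% and 6.92% were lower in those classes. Mgat5, which encodes the enzyme that makes tetra-antennary branches, was at 162 CPM (155 to 170) against 216 CPM (208 to 223) in monocytes and at 260 CPM (252 to 268) against 275 CPM (266 to 285) in macrophages. B4galt1, which adds galactose to such branches, was at 121 CPM (115 to 127) against 220 CPM (212 to 228) in monocytes and at 220 CPM (212 to 227) against 333 CPM (322 to 344) in macrophages. None of 19, 18 and 18 unfolded protein response genes passed in those 3 classes. In neutrophils none of 5 measured branching genes passed, and 2 of 12 unfolded protein response genes were higher and 1 lower. Of all neutrophil genes 13.8% were higher and 8.39% lower. Transcript levels do not measure glycan structures.

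The remaining lists are set beside the shares over all genes. In monocytes, macrophages, dendritic cells and neutrophils 1.86%, 2.52%, 5.61% and 13.8% of all genes were higher. In the same order 2.33%, 2.98%, 6.92% and 8.39% were lower. Of 7, 7 and 6 complement genes 1, 1 and 2 were higher in monocytes, macrophages and dendritic cells, among them C4b in macrophages and Cfb in dendritic cells, and C3ar1 was lower in dendritic cells. Of 13, 13 and 12 checkpoint and costimulatory ligands, 1 was higher and 1 lower in monocytes, macrophages and dendritic cells, and Icosl, the ligand of the T cell receptor ICOS, was the lower gene in all 3, with log2 ratios of −0.69, −0.63 and −0.73. MHC class I genes gave 6 of 18 higher in neutrophils and 2 of 20 in dendritic cells, with medians of 0.31 and 0.00 and none lower. Of 6 stefin and Wfdc genes of neutrophils 2 were lower, Wfdc17 and Wfdc21. Of 11 mitochondrially encoded genes in neutrophils 1 was higher, not above the share of all genes there, and none passed in the other classes.

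Other cell types and cell cycle genes were checked for their levels. T cell markers summed to 22 to 71.5 CPM over the 4 classes in these libraries, and keratin markers of tumor cells to 0 to 10.3 CPM. NK cell markers summed to 19.3 to 152 CPM. B cell markers summed lower with the combination in monocytes, at 61.1 against 97.0 CPM, and in macrophages, at 45.3 against 63.1 CPM. They summed to 85.5 against 96.8 CPM in neutrophils and to 120 against 121 CPM in dendritic cells. Erythroid genes, which include haemoglobin, summed to 79.0 CPM in monocytes, 68.2 CPM in macrophages and 194 CPM in dendritic cells of the combination library, against 0.880, 1.66 and 0.623 CPM with anti-PD-L1 alone, and their part in the other results was not tested. Cell cycle genes were lower in 4 of 16 cases in macrophages and 6 of 13 in dendritic cells, with medians of −0.36 and −0.49. Of all genes 2.98% and 6.92% were lower in those classes. In macrophages 7 of 12 members were lower in the Spp1 or Gpnmb cells, against 1 of 12 in the Mrc1 cells and none of 7 in the rest, a difference that was not tested. The shares of all genes lower in these subsets were 5.33%, 4.22% and 6.91% in the same order. In dendritic cells the median was −0.29 in the Xcr1 or Clec9a cells but 0.33 in the Ccr7 and Fscn1 cells, 0.22 in the Cd209a cells and 0.54 in the rest, and was −0.11 with equal subset makeup and −0.051 in thinned cells. In neutrophils 4 of 5 were higher, against 13.8% of all genes there, and Mki67 had 54 against 21 UMIs. Nuclear oxidative phosphorylation genes stayed near the background in the 3 larger classes, 1 of 74 higher in each.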

How the data were processed

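Libraries were 10x Genomics 3′ v3.1, aligned to mm10. The file headers and the study's methods name Cell Ranger 7.0.0, whereas the submitters' processing notes name 3.1.0. What the authors deposited are unnormalized counts (UMIs) for 32285 genes in each barcode, without cell types. Gene positions were read from the GENCODE annotation of that build. Cells were filtered as described above. Neutrophils needed at least 2 UMIs of Csf3r and Cxcr2, 10 of S100a8 and S100a9, and at most 2 of C1qa, C1qb and C1qc. Dendritic cells needed at least 3 of Flt3, Zbtb46, Xcr1, Clec9a, Cd209a, Ccr7 and Siglech, and at most 4 of those C1q genes. Of the rest, macrophages needed at least 5 of C1q genes and Mrc1, then monocytes 3 of Ly6c2, Ccr2, Vcan, Chil3, Plac8, F13a1 and Ace. No alternative varied these cut-offs. Gates were set on marker detection over all 6 libraries without regard to treatment, and genes used in gates were left out of lists and rankings. Within a class, doublets were kept. As an alternative, a simulated-doublet score (scikit-learn 1.9.0) marked 652 of 9026 and 620 of 8801 cells that passed the filters for removal. Those marked were 7 and 10 neutrophils, 59 and 92 monocytes, 123 and 91 macrophages, and 20 and 22 dendritic cells, and the others lay outside the classes. Named genes were the list genes, genes called in all 4 classes, and the 6 highest and 6 lowest ratios per class. The ranking alone left out mitochondrial, ribosomal, immunoglobulin, T cell receptor and haemoglobin genes. It also left out genes in under 5% of cells and genes under 20% of their level in other cells of the library. List genes and genes called in all 4 classes were not so filtered. Some of their values were below that 20%, and the part of free RNA in them was not tested. The calculations were tested on simulated data. The members and gene lists were chosen with earlier results of these data known. Some genes are not reported here. Alternatives are given in the closing section. The study's own cell names and per-cell tests were not used.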

Additional observations from a re-analysis of the deposited data

Results flagged for a closer look

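Among 491 list genes measured in at least 2 classes, 14 were past 1.5-fold in opposite directions in different classes, or 2.85%, against 45 of all 10648 genes so measured, or 0.423%. Neutrophils, where 13.8% of all genes were higher and 8.39% lower, were on one side of 13 of the 14 and of 40 of the 45. Only 3576 genes were measured in neutrophils, and the 2 sets were not matched for that. The 2.85% and 0.423% are therefore not like for like, and nothing is read from their difference. With 1 library per condition, none of these differences between classes was tested. The values are log2 ratios of the combination over anti-PD-L1 alone.

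Most of these genes were lower in neutrophils. Ccl4 was −0.84 in neutrophils but 1.60 in monocytes, 1.30 in macrophages and 2.16 in dendritic cells. Ccl5, a T cell attractant, was −0.69 in neutrophils, 0.715 in monocytes and 1.24 in macrophages. Wfdc17 was −0.752 in neutrophils, 0.743 in monocytes, 0.646 in macrophages and 1.12 in dendritic cells. The cytokine gene Osm was −1.01 in neutrophils, 0.696 in macrophages and 1.26 in dendritic cells, and the small GTPase gene Rhob −0.669, 0.609 and 0.67 in the same order. Padi4 was −1.64 in neutrophils and 0.643 in macrophages.

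The other pattern, higher in neutrophils, was seen for Spp1, at 1.38 in neutrophils, −0.984 in monocytes, −0.763 in macrophages and −0.796 in dendritic cells. Spp1 had 96 and 41 UMIs in neutrophils.

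Several genes differed between neutrophils and dendritic cells. The interferon-induced sensors Ddx58 and Oas3 were −0.651 and −0.729 in neutrophils and 0.598 and 0.739 in dendritic cells. Thbs1, which encodes thrombospondin 1, was −0.683 in neutrophils and 1.04 in dendritic cells. Il1a was 1.07 and −0.803, Tnf 0.801 and −0.611, and the tubulin gene Tubb5 1.66 and −0.633 in neutrophils and dendritic cells. Cd36, a scavenger receptor for lipids, differed among the larger classes, at 0.65 in monocytes, −0.611 in macrophages and −1.49 in dendritic cells.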

How the results depend on the processing

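With 1 library per condition no replicate could be left out. No paired analysis was possible because each group had 1 library and the result came from no test. The class shares moved by less than their intervals under the 4 alternatives for cells (10% mitochondrial UMIs, 500 genes, 5 UMIs in the myeloid gate, doublets removed). Counts of genes past 1.5-fold kept within 1.5 times of the reported ones under 10% mitochondrial UMIs, 500 genes, 5 UMIs in the gate, doublet removal, totals without ribosomal and mitochondrial genes and the mean of cells' CPM. Equal subset makeup, added after the data were seen, also kept them, with 203 higher and 227 lower genes in monocytes and 292 and 326 in macrophages. The settings that follow moved some of them. With at least 20 or 200 UMIs per gene, neutrophils had 991 or 126 higher and 552 or 97 lower genes, and with 200 dendritic cells had 257 and 251. Adding 1 CPM gave 369 higher and 673 lower genes in monocytes and 472 and 863 in macrophages. Adding 20 CPM gave 100 and 67 in monocytes, 144 and 83 in macrophages and 240 and 216 in dendritic cells. Centring gave 168 lower genes in monocytes and 218 in macrophages. Thinning each cell to 1000 UMIs, which leaves fewer counts per gene, gave 610 lower genes in neutrophils, 432 higher and 714 lower in monocytes, 689 and 959 in macrophages and 1348 and 1702 in dendritic cells. Of 96 list medians 37 moved by at least 0.1 with thinned cells and 14 changed sign, 22 and 11 with the mean of cells' CPM, 15 and 0 with 20 CPM added, and, of 95, 15 and 9 with 5 UMIs in the gate and 16 and 4 with doublets removed; the other settings moved at most 13. Centring changed the sign of 13. The median of MHC class II genes in neutrophils turned to −0.112 with doublets removed, and Nup107 in neutrophils to −0.61 with thinned cells; the cause was not tested. The other 47 top-ranked values that were recomputed in thinned cells kept their direction. Neutrophil values had the fewest UMIs and the widest intervals.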
